A study of Mus musculus with 20 samples.

Results

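The bile acid synthesis and transport genes of the liver were followed in fasted mice that lacked Cpt2, Ppara, both or neither. They are 10 of the 21900 protein-coding RefSeq genes with a position: Cyp7a1, Cyp8b1, Cyp27a1 and Cyp7b1 for synthesis, Slc27a5 and Baat for conjugation, Abcb11 and Abcb4 for export into bile, and Slc10a1 and Slco1b2 for uptake from blood. They were chosen by name for their function, with earlier results of these data known. Their chromatin was read as every interval of the authors' consensus sets whose midpoint lay in the gene body or within 10 kb of it. This gave 85 of 65776 H3K27ac intervals, 148 of 103014 H3K4me1 intervals and 69 of 46568 H3K9ac intervals. Both acetylation marks are found at active promoters and enhancers, and H3K4me1 at enhancers whether active or not.

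All livers came from C57BL/6 male mice of 9 weeks killed after a fast of 24 h. The groups were wild type (WT), a liver knockout of Cpt2 (Cpt2 L-/-, Cpt2 KO), a whole-body knockout of Ppara (Ppara -/-, Ppara KO) and the double knockout (Cpt2 L-/-;Ppara -/-, DKO). Cpt2 is the carnitine palmitoyltransferase of the inner mitochondrial membrane, needed to oxidise long-chain fatty acids, and Ppara is a fatty acid-binding nuclear receptor active in fasting. The driver of the liver deletion is not given in the sources used here. H3K27ac and H3K4me1 were profiled by chromatin immunoprecipitation and sequencing (ChIP-seq) in 2 livers of each genotype, and H3K9ac in 1 WT and 1 Cpt2 KO liver.

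Bile acids are made from cholesterol in hepatocytes. Cyp7a1 is the rate-limiting enzyme of the classic pathway, and Cyp8b1 adds the hydroxyl group that distinguishes cholic acid from chenodeoxycholic and muricholic acids. Cyp27a1, a mitochondrial sterol hydroxylase, and Cyp7b1, an oxysterol hydroxylase, serve the alternative pathway. Slc27a5 activates bile acids with coenzyme A and Baat joins them to taurine or glycine. Abcb11 is the bile salt export pump and Abcb4 the phospholipid floppase of the canalicular membrane, while Slc10a1 (NTCP) and Slco1b2 take bile acids up from portal blood. The receptor FXR (Nr1h4) and its target Nr0b2 (SHP) hold synthesis back when bile acids accumulate.

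The sequences just upstream of 4 start sites are shown because an H3K27ac interval over each of those starts, or beside it at Cyp27a1, differed between genotypes. Each is the 250 bases before the RefSeq start site on the gene's strand, 5′ to 3′, GRCm38.p6 (mm10), and capitals mark the motif matches found.
Cyp8b1, chr9:121916306-121916555, minus strand: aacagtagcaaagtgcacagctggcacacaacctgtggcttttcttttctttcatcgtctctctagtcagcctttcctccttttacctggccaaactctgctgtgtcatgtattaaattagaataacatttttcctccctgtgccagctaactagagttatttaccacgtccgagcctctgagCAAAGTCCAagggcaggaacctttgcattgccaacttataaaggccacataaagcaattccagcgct
Cyp27a1, chr1:74713285-74713534, plus strand: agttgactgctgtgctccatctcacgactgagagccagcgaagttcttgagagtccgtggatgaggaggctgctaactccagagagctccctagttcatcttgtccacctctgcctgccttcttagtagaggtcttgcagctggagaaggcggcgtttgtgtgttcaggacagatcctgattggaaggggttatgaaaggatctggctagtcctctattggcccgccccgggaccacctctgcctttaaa
Abcb11, chr2:69342617-69342866, minus strand: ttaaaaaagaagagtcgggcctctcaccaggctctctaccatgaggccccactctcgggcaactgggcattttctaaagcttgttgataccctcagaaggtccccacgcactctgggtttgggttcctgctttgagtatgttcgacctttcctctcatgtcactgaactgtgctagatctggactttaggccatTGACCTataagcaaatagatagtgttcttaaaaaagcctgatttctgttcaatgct
Slco1b2, chr6:141629268-141629517, plus strand: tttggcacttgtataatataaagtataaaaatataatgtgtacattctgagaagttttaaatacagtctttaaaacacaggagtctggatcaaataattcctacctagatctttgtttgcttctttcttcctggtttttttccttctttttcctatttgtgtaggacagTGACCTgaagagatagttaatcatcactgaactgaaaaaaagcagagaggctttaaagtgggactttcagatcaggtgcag

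The RefSeq promoter table held 6 of the 10 genes. The motifs searched on both strands were the nuclear receptor element AGGTCA, held by 14.0% of the 32851 mouse promoters in the table, and its extensions AAGGTCA (4.08%) and CAAAGGTCA (0.426%). Also searched were CAAAGTCCA, an HNF4A-type element (0.384%), and AGGTCA repeats with 1 base between them, inverted (0.00609%) or direct (0.0335%). AGGTCA lies inside its extensions and repeats, so these counts overlap. Cyp8b1 held CAAAGTCCA from 67 to 59 bases before the start. Abcb11 held AGGTCA on the opposite strand, printed as TGACCT, from 56 to 51 bases before it. Slco1b2 held AGGTCA on the opposite strand from 81 to 76 bases before its start. Slc10a1 held AGGTCA from 87 to 82 bases before one of its start sites. Cyp27a1 and Abcb4 held none of these letters in this window. These matches describe the sequence and were not tested for binding.

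The smallest peak width was 198 to 210 bases in the 4 H3K27ac libraries with Cpt2 (WT and Ppara KO) and 217 to 223 bases in the 4 without it (Cpt2 KO and DKO), so this property of peak calling and the loss of Cpt2 cannot be told apart in H3K27ac. In H3K4me1 the smaller widths (196 to 200 bases) were those of both WT livers, Cpt2 KO liver 2 and Ppara KO liver 1. Of 5 hepatocyte markers, 3 had an H3K27ac peak in all 8 libraries, Tat in 3 libraries and Apoa1 in none. Of 5 cholangiocyte markers, 4 (Krt7, Krt19, Epcam, Cftr) had none in any library. As Apoa1 also had none, absence from these lists does not show absence of a cell type. The peak at the deleted genes does not check the genotypes, because the highest H3K27ac fold at Cpt2 was 18.7 and 23.3 in Cpt2 KO against 11.5 and 16.9 in WT, and the deleted exons are not given in the sources used here. These are whole livers, so fewer cells of a type and less signal per cell cannot be told apart.

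H3K27ac was called at fewer of the bile acid intervals in the livers without Cpt2. WT livers 1 and 2 had peaks at 57 and 51 of the 85 intervals and Ppara KO livers at 48 and 48. Cpt2 KO livers had peaks at 40 and 30, and DKO livers at 37 and 30. The groups with and without Cpt2 did not overlap (56.5 to 67.1% against 35.3 to 47.1%), while over all 65776 intervals the order was the opposite, 48.8 to 52.2% with Cpt2 and 53.8 to 59.0% without. Counts of single peaks with a midpoint in these windows did overlap. They were 70 and 77 in WT, 73 and 70 in Ppara KO, 60 and 58 in Cpt2 KO, and 73 and 53 in DKO. The length covered by H3K27ac peaks in the 10 gene windows was 121.67 and 103.73 kb in WT, 112.09 and 115.52 kb in Ppara KO, 90.97 and 80.84 kb in Cpt2 KO, and 78.98 and 67.02 kb in DKO. Over the genome the peaks covered 44.8 to 47.8 Mb with Cpt2 and 42.0 to 44.9 Mb without. In H3K4me1 the counts overlapped between genotypes, at 79 and 58 of 148 intervals for WT, 72 and 50 for Cpt2 KO, 78 and 79 for Ppara KO, and 66 and 66 for DKO. These are descriptions of separately called peak lists and carry no test.

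**Figure D1:**
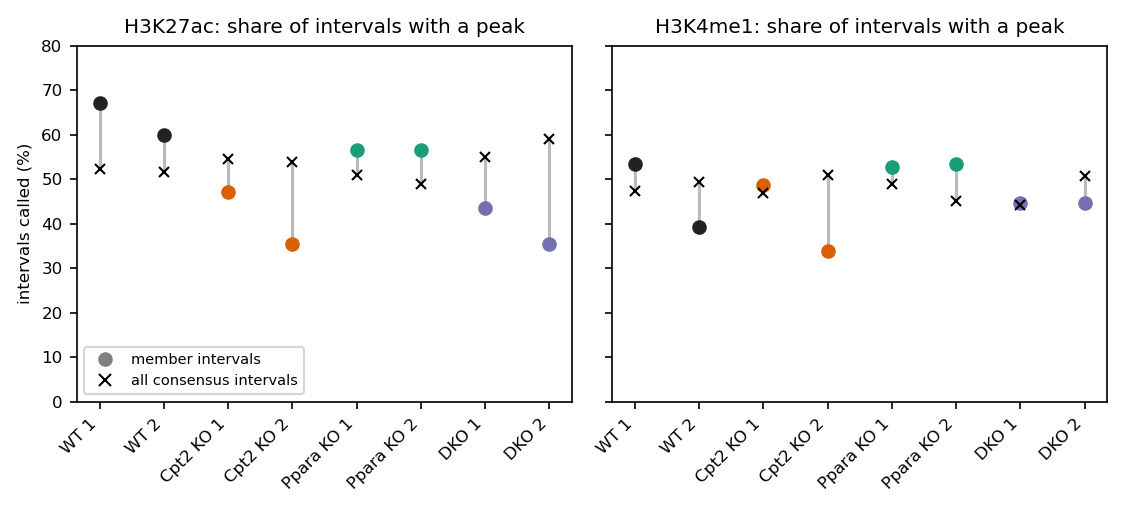
Share of intervals with a peak in each library (y axis, %), for H3K27ac (left) and H3K4me1 (right), with coloured points for the intervals of the 10 bile acid genes and crosses for all consensus intervals of the mark. In H3K27ac the 4 livers with Cpt2 lie at 56.5 to 67.1%, above their crosses, and the 4 without it at 35.3 to 47.1%, below theirs.

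The covered length fell into separate ranges with and without Cpt2 at 4 of the 10 genes, all lower without it. Of the 14430 protein-coding genes with a peak in their window in any library, 10.5% had such a lower range. Cyp8b1 had 17.32 to 21.53 kb of H3K27ac peaks with Cpt2 and 7.76 to 15.81 kb without, and the lowest values were the DKO livers. Cyp27a1 had 9.82 to 12.99 kb against 5.96 to 7.33 kb. Baat had 13.69 to 17.42 kb against 10.77 to 13.48 kb, and Slc27a5 8.87 to 10.86 kb against 5.69 to 7.03 kb. These windows also hold intervals nearest to another gene, 8 of 10 at Slc27a5, 4 of 9 at Baat and 1 of 2 at Cyp8b1. At Cyp27a1 it was 0 of 12. At Cyp7a1, Cyp7b1, Abcb11, Abcb4, Slc10a1 and Slco1b2 the ranges overlapped. Abcb4 was the most even, at 10.94 to 13.89 kb over all 8 livers. In H3K4me1 the ranges were separate at Cyp27a1 (7.3 to 8.95 kb against 4.58 to 6.38 kb) and Slc27a5 (3.4 to 7.9 kb against 2.35 to 2.86 kb), both lower without Cpt2, as at 2.12% of 14937 genes.

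Tests were made where a value existed in every liver. The value of an interval in a library is the highest fold over input among its peaks, as the authors' peak caller gave it, and 21 of the 85 H3K27ac intervals (24.7%, beside 27.8% of all intervals) had one in all 8. At least 1 interval of each of the 10 genes was among them. Log2 folds, centred on the median of each library, were compared with limma over all 18281 such intervals, with Benjamini-Hochberg adjustment and a threshold of 0.05. Differences are log2 units with SE. The peak names carry a separate number for each liver, the same in H3K27ac and H3K4me1, from 9548 to 9589 for WT and Cpt2 KO and from 6833 to 6848 for Ppara KO and DKO. Loss of Ppara and this series of numbers cannot be told apart, and p-values measure the spread between these livers. The 64 intervals outside the test had no peak in at least 1 liver, and the counts that follow leave them out.

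In the comparison for loss of Cpt2, 3 of the 21 intervals were called lower and none higher. This is 14.3%, beside 12.3% called over all 18281, a share near it, and 7.38% called lower. The 3 were 2 intervals of Cyp27a1 and the start of Slco1b2, and 10 of the 21 were under an unadjusted p of 0.05. The difference was below 0 at 19 of the 21 intervals, with a median of -0.41, where 51.4% of all intervals were below 0 and their median was -0.01. Without centring, the median of all intervals shifted by 0.25 towards the livers without Cpt2, the calls over all intervals went from 896 higher and 1349 lower to 3504 higher and 432 lower, and 1 of the 21 remained lower. Every direction for Cpt2 below is relative to that shift. With the smallest peak width as a covariate, none of the 21 and none of the 18281 was called. Width divides the H3K27ac libraries as Cpt2 does, so this fit cannot separate the 2, and its lack of calls decides nothing. When intervals called in 2 or more livers were included and each missing value was set to the lowest fold of its library, 17 of 58 were lower (29.3%, beside 13.2% of all 47873) and 3 higher, 20 in all (34.5%, beside 25.1%). An interval can enter this fit only through the group that called it, with a set floor in the other. Its counts, here and below, therefore partly restate the presence of peaks and are no separate support.

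The comparison of Cpt2 KO with WT called 4 of the 21 intervals, all lower (13.5% called over all, 7.69% lower), at Cyp27a1 (2), Abcb11 and the Baat window. That of DKO with WT called 5, all lower (20.2% called, 11.5% lower), at Cyp8b1 (2), Cyp27a1, Slco1b2 and the Baat window. These comparisons share the WT livers. Loss of Ppara called 0 of 21 (7.34% over all), with 3 under an unadjusted p of 0.05 and a lowest adjusted p of 0.0921 by limma, and its differences ran from -0.58 to 0.33. Ppara KO against WT also called 0 (6.42% over all), with 1 under an unadjusted p of 0.05. The interaction of both losses called 0 (0.00547% over all, a single interval), with 1 under an unadjusted p of 0.05. With missing values set to the lowest fold, the counts were 6 of 58 for Ppara loss (10.3%, beside 20.6% of all 47873), 4 for Ppara KO against WT (6.9%, beside 12.7%) and 5 for the interaction (8.62%, beside 10.5%). The same fit called 16 for Cpt2 KO against WT (27.6%, beside 22.4%) and 13 for DKO against WT (22.4%, beside 30.7%).

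**Figure D2:**
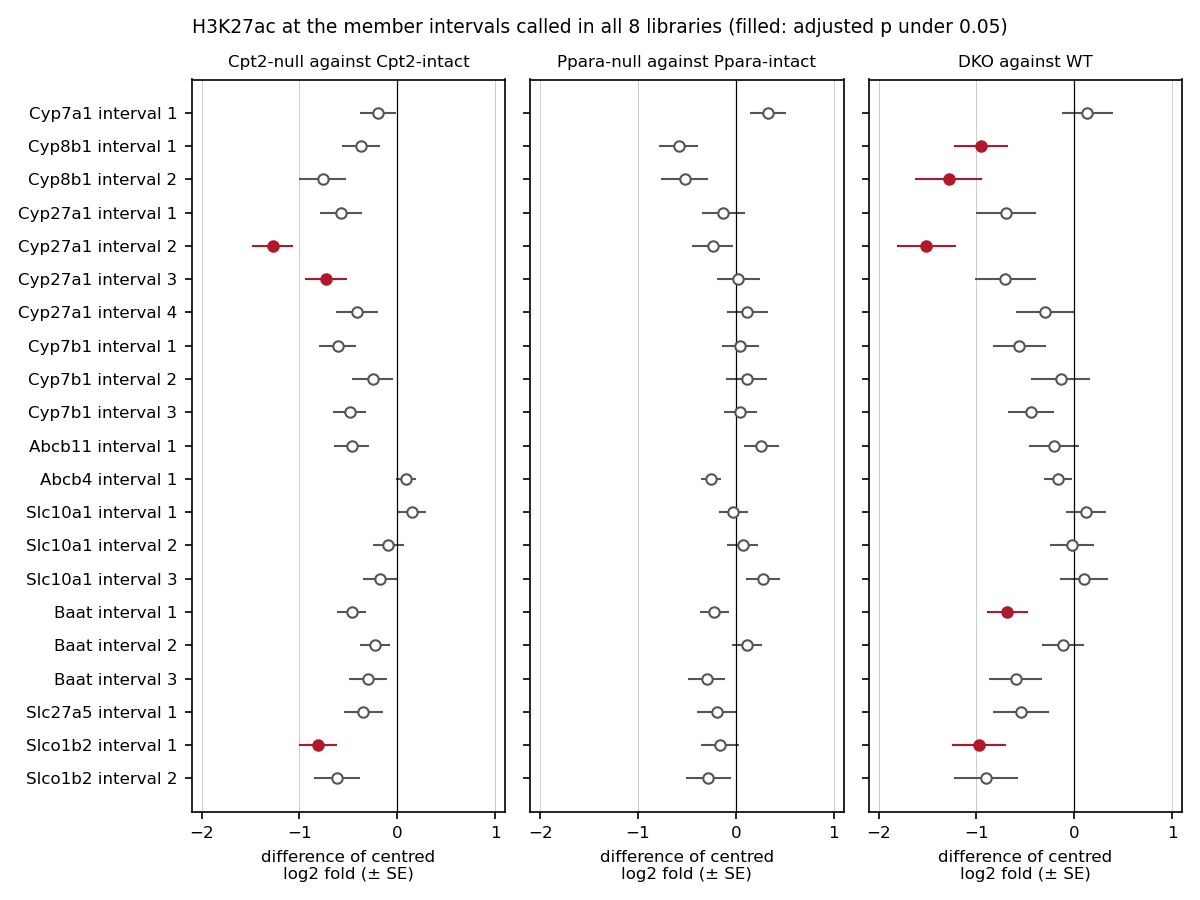
Difference of centred log2 fold of H3K27ac (x axis, ± SE) at the 21 tested intervals (y axis, numbered along the chromosome within each gene), for loss of Cpt2, loss of Ppara and DKO against WT, with filled points for an adjusted p under 0.05. Of the 21 points, 19 lie left of 0 for Cpt2 and 18 for DKO, and those for Ppara lie on both sides.

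Signals that move with Cpt2 in these libraries include markers of other cells. The folds summed here are not centred, and a gene with no peak adds 0. Without centring, the median difference of all tested intervals for Cpt2 loss was itself 0.25 log2 units. The summed highest H3K27ac fold within 2 kb of 5 Kupffer cell and macrophage genes was 18.97 to 22.56 in WT, 23.3 to 29.98 in Ppara KO, 41.28 to 44.67 in Cpt2 KO and 49.34 to 51.43 in DKO, with 2 of the 5 called in every liver. Endothelial markers, all 5 called in every liver, summed to 61.61 to 71.37, 67.24 to 81.72, 98.66 to 106.36 and 103.15 to 110.23 in the same order. Hepatocyte markers summed to 34.18 to 41.43, 45.53 to 59.0, 51.39 to 59.31 and 65.83 to 79.59. Stellate cell markers summed to 14.74 to 18.82, 6.1 to 13.33, 29.9 to 38.04 and 20.75 to 37.26. Lymphocyte markers gave 10.17 to 16.48, 8.0 to 12.94, 7.88 to 12.17 and 14.0 to 14.67, all from Cd79a, and cholangiocyte markers gave 12.45 to 19.65, 5.81 to 7.25, 0 and 6.69 to 9.57, all from Sox9. The part of these cells in the bile acid results was not tested.

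Cyp7a1 (chr4:6265612-6275632) had the weakest H3K27ac of the 10 genes. Its lead interval, the one called in most livers with the highest mean log2 fold, was chr4:6261906-6263522, 2898 bases beyond the lower end of the gene. Folds there were 5.57 and 5.44 for WT, 5.67 and 5.60 for Cpt2 KO, 7.29 and 6.56 for Ppara KO, and 6.60 and 8.35 for DKO. All 4 livers without Ppara were above the 4 with it. The difference for Ppara loss was 0.33 ± 0.18, and its adjusted p by limma was 0.305. For Cpt2 loss it was -0.20 ± 0.18 (adjusted p 0.497), and 0.07 without centring. At the upper end of the gene, chr4:6274618-6275623 and chr4:6275844-6276499 each had a peak in 6 livers, and DKO liver 2 lacked both. The −log10 q of the lead peak was 12.31 to 28, against lowest values of 26.21 or more at the other 9 genes.

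Cyp8b1 (chr9:121914356-121916305, minus strand) lay within a pair of broad H3K27ac intervals, and both were lower in DKO than in WT. The lead interval, chr9:121906298-121916891, is 10.59 kb wide and covers the start site, although its midpoint is nearest to Ackr2. Its folds were 19.5 and 19.0 for WT, 27.6 and 17.4 for Cpt2 KO, 12.5 and 20.6 for Ppara KO, and 14.4 and 10.4 for DKO. DKO livers did not overlap with WT, and the single-knockout livers lay on both sides of WT. DKO against WT gave -0.95 ± 0.28 (limma, adjusted p 0.0300), and -0.62 (adjusted p 0.220) without DKO liver 2. The call was also lost without WT liver 1 (-0.83, adjusted p 0.118) or WT liver 2 (-1.07, adjusted p 0.0777).

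The other Cyp8b1 interval, chr9:121917027-121927671, is 10.64 kb wide and lies upstream of the start. Its folds were 16.9 and 26.0 for WT, 28.4 and 10.6 for Cpt2 KO, 13.9 and 21.7 for Ppara KO, and 9.67 and 11.5 for DKO. Again both DKO livers were below both WT livers, while the Cpt2 KO pair spanned the widest range of any genotype. DKO against WT gave -1.29 ± 0.34 (limma, adjusted p 0.0196), lost without WT liver 2 (-1.07, adjusted p 0.136), DKO liver 1 (-1.26, adjusted p 0.0729) or DKO liver 2 (-1.31, adjusted p 0.0703). The interaction was not called at either interval, so DKO is not shown to differ from the sum of both single losses. In the peak lists, WT livers held 21.53 and 21.47 kb of acetylation in a window of 21.95 kb, and DKO livers 9.71 and 7.76 kb.

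**Figure D3:**
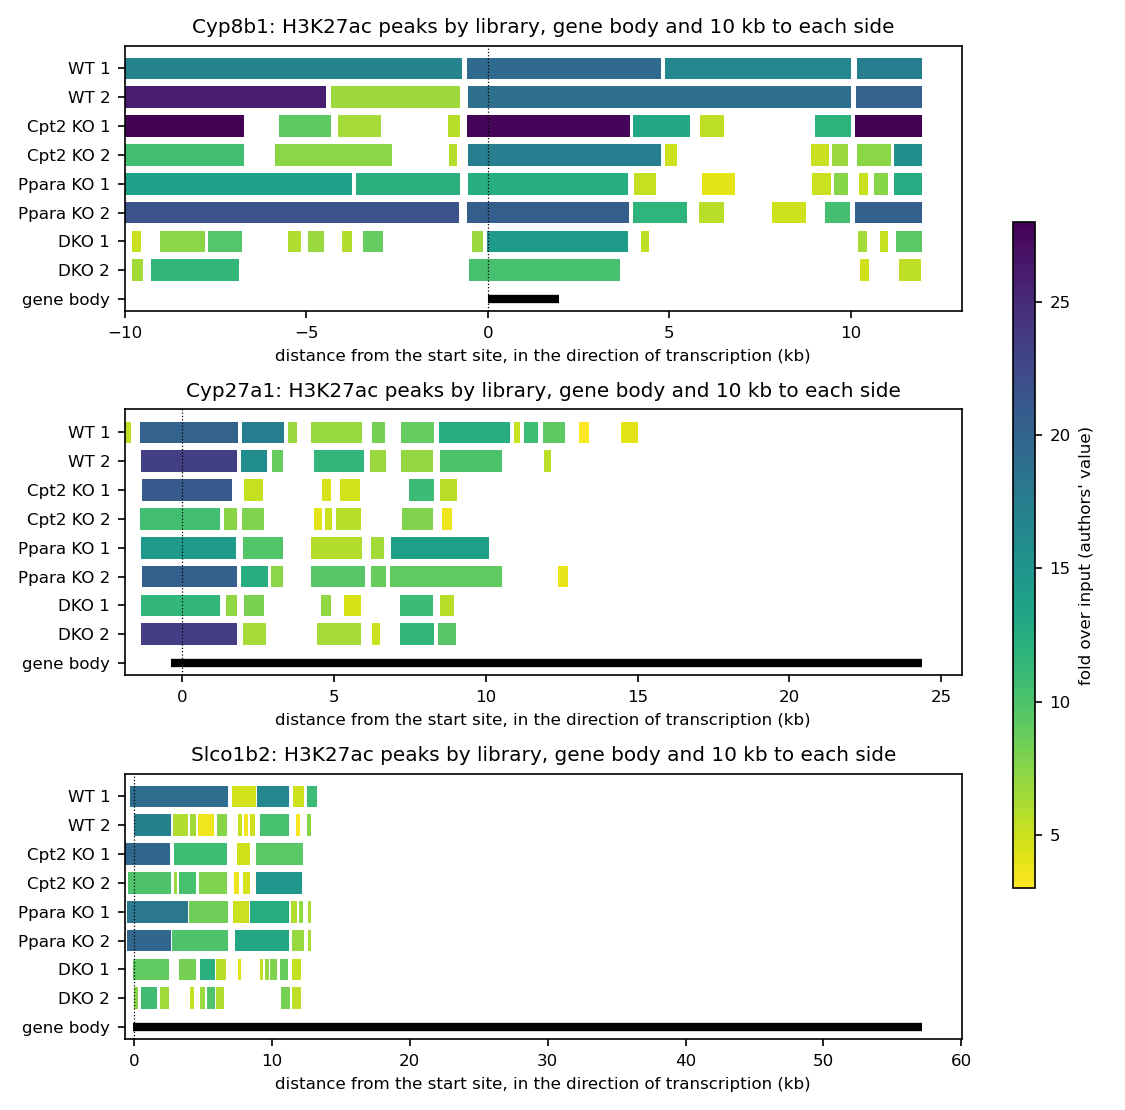
H3K27ac peaks of each library at Cyp8b1, Cyp27a1 and Slco1b2, drawn to scale against distance from the start site in the direction of transcription (x axis, kb), with colour for the fold over input and a black bar for the gene body. Covered length at Cyp8b1 runs from 21.53 kb in WT liver 1 to 7.76 kb in DKO liver 2, and peaks of Cyp27a1 and Slco1b2 sit in the first part of the gene.

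Cyp27a1 (chr1:74713148-74737897, plus strand) held the largest difference among the 21 tested intervals. The interval chr1:74715467-74716881, inside the gene with its midpoint 2639 bases from the start site, had folds of 17.4 and 15.9 for WT, 5.17 and 7.80 for Cpt2 KO, 9.81 and 12.5 for Ppara KO, and 8.0 and 6.4 for DKO. Every liver without Cpt2 was below every liver with it, and the Ppara KO livers lay between. Loss of Cpt2 gave -1.28 ± 0.21 (limma, adjusted p 0.00568), and between -1.46 and -1.09 when each liver was left out, always past the threshold. Cpt2 KO against WT gave -1.61 ± 0.30 (adjusted p 0.00730), lost without Cpt2 KO liver 1 (-1.25, adjusted p 0.0902). DKO against WT gave -1.51 ± 0.30 (adjusted p 0.00571).

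The next Cyp27a1 interval, chr1:74717762-74719558, with its midpoint 5125 bases from the start site, had folds of 6.91 and 11.6 for WT, 4.70 and 5.82 for Cpt2 KO, 5.89 and 9.56 for Ppara KO, and 7.16 and 6.36 for DKO. Here the groups with and without Cpt2 overlapped on the fold scale. Loss of Cpt2 gave -0.73 ± 0.22 (limma, adjusted p 0.0438) and Cpt2 KO against WT -1.0 ± 0.31 (adjusted p 0.0474). Both calls were lost when any 1 liver other than WT liver 1 was left out, with adjusted p from 0.0526 to 0.158 for the first and from 0.0503 to 0.294 for the second. The lead interval over the start site, chr1:74712139-74715352, was not called for Cpt2 loss (-0.57 ± 0.22, adjusted p 0.0937). Its folds were 20.2 and 23.4 for WT, 20.9 and 10.6 for Cpt2 KO, 14.5 and 20.5 for Ppara KO, and 11.5 and 23.5 for DKO, so the livers of both Cpt2-null genotypes ran from low to high. The remaining tested interval, chr1:74720365-74724340, had 12.5 and 10.1, 10.9 and 7.78, 14.0 and 9.15, and 10.9 and 11.6 in the same order.

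Cyp7b1 (chr3:18071944-18243890) had 3 tested intervals and no call. The lead interval at its upper end, chr3:18241615-18244662, had folds of 20.6 and 21.3 for WT, 23.1 and 13.0 for Cpt2 KO, 19.4 and 23.4 for Ppara KO, and 16.4 and 21.9 for DKO. Cpt2 KO liver 2 was the lowest and the rest overlapped. The Cpt2 difference was -0.49 ± 0.16 (limma, adjusted p 0.0667). Inside the gene, chr3:18190082-18191433 had 6.75 and 8.11, 7.0 and 6.65, 7.89 and 10.6, and 6.88 and 5.5, and its neighbour chr3:18191521-18193388 had 18 and 9.64, 18.6 and 17.0, 18.3 and 20.6, and 15.4 and 13.9, in that order of genotypes. At the first, both Ppara KO livers were above all livers without Cpt2 and overlapped with WT. Its Cpt2 difference was -0.61 ± 0.19 (limma, adjusted p 0.0531). At the second, both Ppara KO livers were above the WT and DKO livers, and both Cpt2 KO livers above the DKO livers. The other pairs of genotypes overlapped there.

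Slc27a5 (chr7:12988346-12998192) had 1 tested interval, chr7:12993934-13002492, over its upper end. Folds were 22.5 and 26.3 for WT, 29.1 and 22.9 for Cpt2 KO, 27 and 22.0 for Ppara KO, and 28.1 and 15.0 for DKO. The lowest value was DKO liver 2 and all other livers were within 22.0 to 29.1. The Cpt2 difference was -0.35 ± 0.20 (limma, adjusted p 0.262). It was 0.73 with the smallest peak width as a covariate, a fit that cannot separate width from Cpt2.

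Baat (chr4:49489416-49507915) had overlapping levels at its own lead interval and lower ones in Cpt2 KO and DKO than in WT at a neighbouring domain. The lead, chr4:49501373-49507962, had folds of 27.9 and 22.2 for WT, 25.4 and 25.7 for Cpt2 KO, 31.9 and 24.0 for Ppara KO, and 26.2 and 30.5 for DKO, all overlapping. Its Cpt2 difference was -0.23 ± 0.15 (limma, adjusted p 0.330), and 0.04 without centring. The domain chr4:49475190-49486554, 11.37 kb wide and nearest to Acnat1, had 32.1 and 29.1 for WT, 23.7 and 20.5 for Cpt2 KO, 24.7 and 20.0 for Ppara KO, and 24.4 and 22.3 for DKO. Both WT livers were above all 6 knockout livers. Cpt2 KO against WT gave -0.70 ± 0.21 (adjusted p 0.0416) and DKO against WT -0.68 ± 0.21 (adjusted p 0.0338). The first call was lost without any 1 of the WT and Cpt2 KO livers (-0.52 to -0.87, adjusted p 0.0716 to 0.167), and the second without WT liver 1, DKO liver 1 or DKO liver 2 (-0.51 to -0.85, adjusted p 0.0530 to 0.205). The last tested interval, chr4:49510018-49510568, nearest to Mrpl50, had 16 and 16, 22.8 and 16.3, 11.9 and 22.6, and 14.0 and 12.

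Abcb11 (chr2:69238282-69342616, minus strand) had a single H3K27ac interval, chr2:69340669-69343250, over its start site. Folds were 14.0 and 17.6 for WT, 13.5 and 7.76 for Cpt2 KO, 14.9 and 13.8 for Ppara KO, and 16.3 and 17.2 for DKO. Cpt2 KO liver 2 stood below the other 7 livers, which ran from 13.5 to 17.6. Cpt2 KO against WT gave -0.84 ± 0.25 (limma, adjusted p 0.0428), and -0.51 (adjusted p 0.293) without that liver. The call was lost when any 1 of the 8 livers was left out, with adjusted p from 0.0522 to 0.293. DKO against WT gave -0.21 ± 0.25 (adjusted p 0.592), and the interaction 0.75 ± 0.36 (adjusted p 0.335), so the Cpt2 difference is not shown to depend on Ppara.

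Abcb4 (chr5:8893614-8959226, plus strand) had the highest fold of the 10 genes. Its lead, chr5:8893065-8905049, 11.98 kb wide and over the start site, had 28.3 and 35.5 for WT, 47.3 and 40.3 for Cpt2 KO, 29.2 and 29.2 for Ppara KO, and 34.3 and 35.1 for DKO. Both Cpt2 KO livers were above the other 6. The centred Cpt2 difference was 0.09 ± 0.10 (limma, adjusted p 0.598) and Cpt2 KO against WT 0.24 ± 0.15 (adjusted p 0.288).

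Slc10a1 (chr12:80953185-80968705, minus strand) had 3 tested intervals and no call. The interval over the start region, chr12:80963343-80969698, had folds of 12.6 and 12.5 for WT, 15.2 and 13.8 for Cpt2 KO, 12 and 15.7 for Ppara KO, and 15.6 and 14.8 for DKO. The lead by fold, chr12:80944075-80947862, lies 7217 bases from the gene within Srsf5 and had 17.3 and 19.2, 26.4 and 20.7, 19.9 and 15.6, and 22.5 and 26.4. There every liver without Cpt2 was above every liver with it on the fold scale, and the centred difference was 0.15 ± 0.15 (limma, adjusted p 0.530). The third, chr12:80975093-80977433, had 11.2 and 12.3, 16.2 and 10.9, 12.7 and 18.9, and 15.4 and 15.6. There both WT livers were below the Ppara KO and DKO livers, and the Cpt2 KO pair overlapped with every other genotype.

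Slco1b2 (chr6:141629452-141686646, plus strand) was lower over its start site without Cpt2. The lead, chr6:141628861-141636351, 7.49 kb wide, had folds of 19.2 and 17.2 for WT, 19.8 and 10.3 for Cpt2 KO, 18.1 and 19.9 for Ppara KO, and 12.1 and 10.7 for DKO. Cpt2 KO liver 1 was as high as the livers with Cpt2, and the other 3 livers without Cpt2 were below all of them. Loss of Cpt2 gave -0.81 ± 0.19 (limma, adjusted p 0.0202), lost without Cpt2 KO liver 2 (-0.61, adjusted p 0.0693), DKO liver 2 (-0.71, adjusted p 0.0630), or either Ppara KO liver (-0.81 each, adjusted p 0.0568 and 0.0599). DKO against WT gave -0.97 ± 0.27 (adjusted p 0.0252), lost without WT liver 1 (-0.79, adjusted p 0.116), WT liver 2 (-1.15, adjusted p 0.0528) or DKO liver 2 (-0.78, adjusted p 0.150). The adjacent chr6:141636602-141641820 had 16.4 and 10.2, 9.44 and 15.0, 12.5 and 13.1, and 8.84 and 8.24, and the DKO livers were the lowest of the 8.

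**Figure D4:**
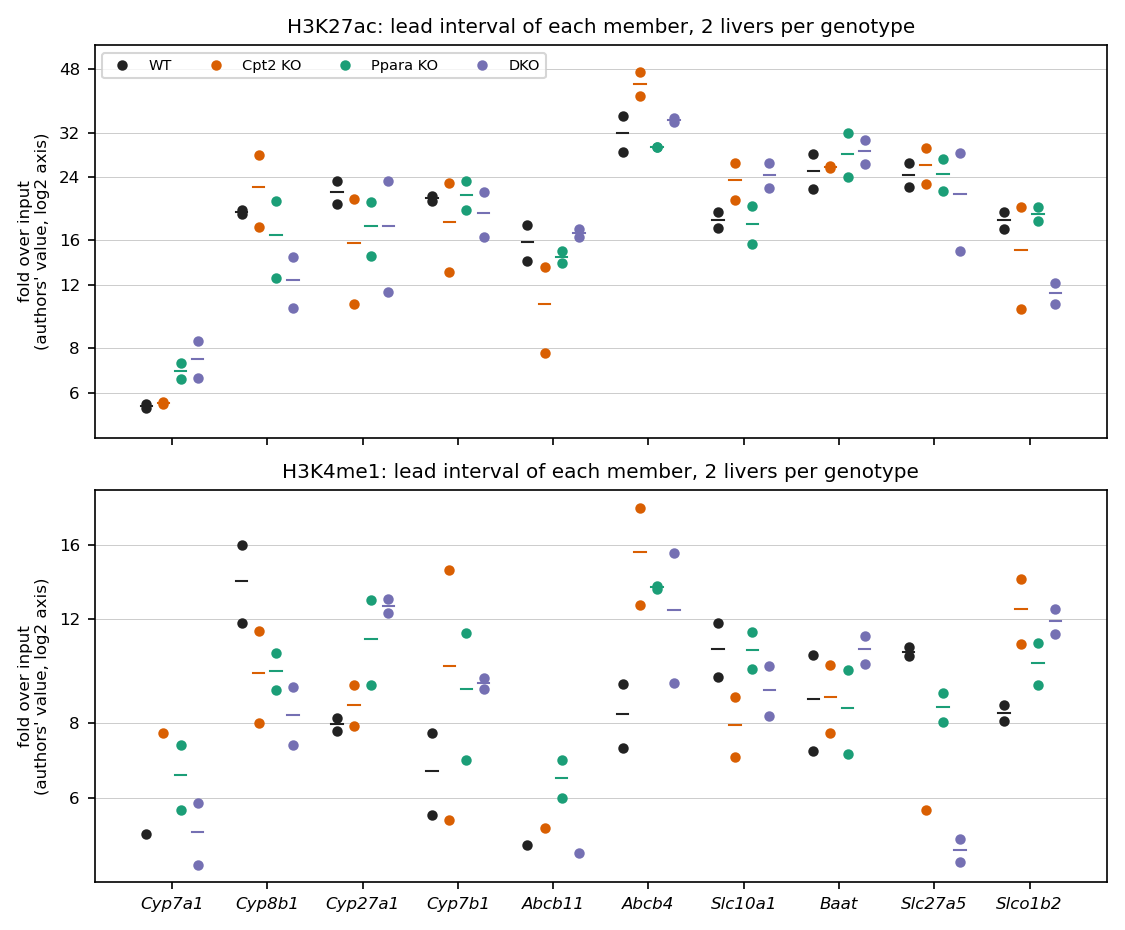
Fold over input (y axis, log2 scale, the authors' value) at the lead interval of each gene in H3K27ac (top) and H3K4me1 (bottom), with a point for each liver, coloured by genotype, and a dash for the mean of a genotype where both livers had a peak. In H3K27ac Cyp7a1 is the lowest gene and Abcb4 the highest, at up to 47.3, and in H3K4me1 several genes lack a point because no peak was called.

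Intervals present in both livers of 1 genotype and absent from both of another numbered 24 of the 85 in H3K27ac (28.2%, beside 29.6% of all intervals), a share near that of the whole set. Their direction was uneven. Both WT and neither Cpt2 KO liver had a peak at 12 intervals (14.1%, beside 6.64% of all), and both Cpt2 KO and neither WT liver at 3 (3.53%, beside 9.72%). For DKO, 11 were in WT alone (12.9%, beside 8.0%) and 1 in DKO alone (1.18%, beside 12.6%). For Ppara KO, 4 were in WT alone (4.71%, beside 5.41%) and 2 in Ppara KO alone (2.35%, beside 5.01%). All folds at the 24 intervals were between 3.11 and 11.

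At 4 intervals all livers with Cpt2 had an H3K27ac peak and none without it did (4.71%, beside 0.826% of all intervals), each at a different gene. Slc10a1 upstream of its start, at chr12:80969843-80971028, had 10.6 and 5.5 in WT and 4.44 and 4.14 in Ppara KO. Cyp7b1, inside the gene at chr3:18160865-18162272, had 4.71 and 8.90, and 6.65 and 5.57. Baat, just beyond its upper end at chr4:49508089-49509872, had 5.71 and 6.85, and 10.8 and 5.43. Slco1b2, inside the gene at chr6:141642053-141642779, had 11 and 7.53, and 6.19 and 6.30. H3K4me1 over these places divided the livers differently. It was called in 4 livers over the Slc10a1 site, 6 over the Baat site and 4 over the Slco1b2 site, livers without Cpt2 among them, and over the Cyp7b1 site in WT liver 1 and Ppara KO liver 1. The opposite pattern, all livers without Cpt2 and none with it, was found at 1 interval (1.18%, beside 1.95% of all), inside Abcb4 at chr5:8947659-8947997, with 6.59 and 5.95 in Cpt2 KO and 4.51 and 4.87 in DKO.

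Among the other H3K27ac intervals of this kind, those at Abcb4 were again Cpt2 KO peaks. Abcb4 chr5:8885699-8886405 (7.05 and 6.21) and chr5:8905283-8905676 (7.62 and 6.50) were called in Cpt2 KO livers alone. Peaks in WT livers alone were at Slc10a1 chr12:80972372-80972673 (5.31 and 5.70), Cyp7a1 chr4:6272039-6272909 (4.66 and 6.96), and in the Slc27a5 window chr7:12981767-12983511 (5.85 and 6.67, nearest to Zfp446) and chr7:13007267-13008489 (5.60 and 6.00, nearest to Zbtb45).

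Cyp27a1 chr1:74719731-74720250 had 8.26 and 6.87 in WT, 6.50 and 8.79 in Ppara KO, 4.99 in DKO liver 2 and no peak elsewhere, and chr1:74725432-74726225 had 9.20 and 5.60 in WT and 3.80 in Ppara KO liver 2. Slc10a1 chr12:80962559-80962958 and chr12:80973143-80973915 had peaks in every liver with Cpt2 (4.71 to 8.78 and 4.81 to 6.44) and in DKO liver 1 (4.60 and 5.76). Cyp7a1 chr4:6277382-6278445 lacked a peak in Cpt2 KO liver 2 and both DKO livers, and the other 5 had 5.0 to 7.46. In the Slc27a5 window chr7:12993020-12993602 was called in Cpt2 KO liver 1, both Ppara KO livers and DKO liver 2 (3.76 to 4.70), and chr7:13002651-13003142 in WT liver 1 and both Ppara KO livers (5.33 to 7.08). Baat-window chr4:49510885-49511214 was called in WT liver 2, Cpt2 KO liver 1 and both Ppara KO livers (6.82 to 8.17).

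Cyp7b1 had the most of these intervals, 6. Both Ppara KO livers had a peak at all 6, and Cpt2 KO liver 2 at none. Those not yet given were chr3:18159661-18160366 (Ppara KO 4.17 and 3.11, DKO liver 1 4.60), chr3:18166342-18167310 (WT liver 1 8.33, Cpt2 KO liver 1 5.0, Ppara KO 7.5 and 7.60), chr3:18167548-18170779 (WT 9.98 and 5.46, Cpt2 KO liver 1 10.4, Ppara KO 9.40 and 10.3), chr3:18244978-18245361 (WT liver 1 6.41, Ppara KO 9.29 and 6.2) and chr3:18245453-18246990 (WT liver 1 8.64, Ppara KO 8.05 and 8.50, DKO 5.33 and 7.67).

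**Figure D5:**
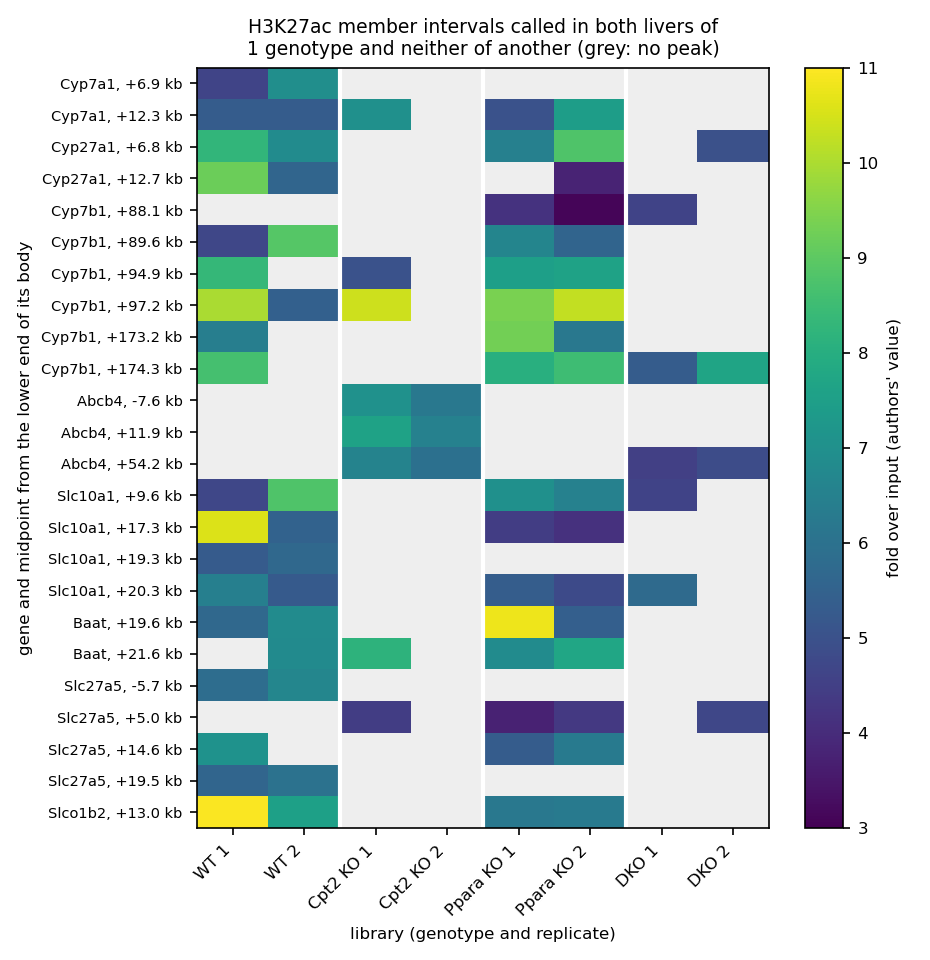
Fold over input (colour) in each library (x axis) at the 24 H3K27ac intervals called in both livers of 1 genotype and neither of another (y axis, gene and distance of the midpoint from the lower end of the gene body, kb), with grey for no peak. Peaks fill the WT and Ppara KO columns at most rows, and 3 Abcb4 rows are filled in Cpt2 KO.

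H3K4me1 gave no call at the bile acid genes. Of the 148 intervals 17 were called in all 8 libraries (11.5%, beside 19.0% of all), and these were tested among 19526. Loss of Ppara called 0 (0.128% over all), with 3 under an unadjusted p of 0.05 and differences from -0.61 to 0.60. Loss of Cpt2 called 0 (0.0% over all), with 2 under an unadjusted p of 0.05 and differences from -0.57 to 0.41. DKO against WT called 0 (0.133% over all), with 4 under an unadjusted p of 0.05 and differences from -1.18 to 0.91. The lowest adjusted p by limma in these comparisons was 0.246, 0.465 and 0.0907.

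The lead H3K4me1 intervals of the synthesis genes differed in how many livers held them. Cyp8b1 chr9:121917094-121928709, upstream of the start, had 11.8 and 16 for WT, 11.4 and 8.0 for Cpt2 KO, 10.5 and 9.10 for Ppara KO, and 9.20 and 7.36 for DKO. Both WT livers were the highest of the 8. Cyp27a1 chr1:74719735-74721827 had 7.76 and 8.19, 9.29 and 7.93, 9.28 and 12.9, and 12.3 and 13.0, with DKO above WT. Cyp7b1 chr3:18191628-18193207 had 7.72 and 5.60, 14.5 and 5.5, 6.94 and 11.4, and 9.15 and 9.55, and all genotypes but DKO spread widely. Cyp7a1 chr4:6258283-6258872 was called in 6 livers, without WT liver 1 and Cpt2 KO liver 2, at 4.62 to 7.71.

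For conjugation, Slc27a5 chr7:12993865-12995938 had 10.8 and 10.4 in WT, 5.71 in Cpt2 KO liver 2 and no peak in liver 1, 8.99 and 8.05 for Ppara KO, and 5.11 and 4.67 for DKO. The livers without Cpt2 were below all those with it or had no peak. The Baat lead, chr4:49480708-49486512, nearest to Acnat1, had 10.4 and 7.20, 10.0 and 7.72, 7.11 and 9.86, and 11.2 and 10.1, overlapping throughout.

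For transport, Abcb4 chr5:8898061-8905019 had 9.33 and 7.29 for WT, 18.5 and 12.7 for Cpt2 KO, 13.5 and 13.7 for Ppara KO, and 15.5 and 9.36 for DKO, with both WT livers lowest. Slco1b2 chr6:141636674-141641747 had 8.07 and 8.61, 14.0 and 10.9, 10.9 and 9.29, and 12.5 and 11.3, also lowest in WT. Neither H3K4me1 difference was called. Slc10a1 chr12:80975078-80976145 had 11.8 and 9.60, 8.88 and 7.04, 11.4 and 9.88, and 10.0 and 8.25. Abcb11 chr2:69340790-69341506 was called in 5 livers at 4.83 to 6.94, and in both livers of Ppara KO alone.

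Of the 148 H3K4me1 intervals, 53 were called in both livers of 1 genotype and neither of another (35.8%, beside 26.2% of all), with folds from 2.69 to 11.5. Of these, 2 were called in all livers without Ppara and none with it (1.35%, beside 0.385% of all). Cyp7b1 chr3:18244057-18244587, at the upper end of the gene, had 6.09 and 4.38 for Ppara KO and 3.57 and 4.17 for DKO. Slco1b2 chr6:141634140-141634673, inside the gene, had 7.12 and 5.45, and 4.71 and 6.58. A further 8 were called in the 4 libraries of smaller minimum peak width alone (5.41%, beside 3.49% of all) and 8 in the 4 of larger width alone (5.41%, beside 3.5%), so these followed peak width and no genotype.

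The smaller-width libraries alone called Slc10a1 chr12:80969744-80971038, Abcb11 chr2:69337018-69338659 and chr2:69339003-69339663, Cyp8b1 chr9:121909359-121910512, Baat-window chr4:49517052-49517776, and Slc27a5-window chr7:12981775-12983068, chr7:13005884-13006466 and chr7:13007350-13008650, at 3.62 to 11.5. The larger-width libraries alone called Slc10a1-window chr12:80948856-80949498, Abcb11 chr2:69342656-69343586, Cyp7a1 chr4:6275866-6276268, Baat-window chr4:49510929-49511532, Abcb4 chr5:8885442-8886433 and chr5:8947645-8948345, Slco1b2 chr6:141634679-141635360 and Slc27a5-window chr7:13001792-13002172, at 3.4 to 8.66. The Slc10a1 site upstream of the start, which had no H3K27ac peak in the livers without Cpt2, is among the first 8.

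H3K4me1 peaks in WT livers alone were at Cyp27a1 chr1:74726882-74727129 and chr1:74728064-74728714, Slc10a1 chr12:80957921-80958258 and chr12:80974153-80974517, and Slc27a5-window chr7:13004639-13005247, at 4.0 to 7.71. Peaks in Cpt2 KO livers alone were at Abcb11 chr2:69341730-69342099, Cyp7b1 chr3:18243627-18243879 and Abcb4 chr5:8922814-8923217, at 3.4 to 6.77. Ppara KO livers alone had Slc10a1 chr12:80954980-80955216 (5.33 and 4.57), and DKO livers alone had Slc10a1-window chr12:80951807-80952363 (4.47 and 5.79) and Cyp7b1 chr3:18246324-18246968 (5.34 and 4.44).

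WT livers lacked, and every knockout liver had, Cyp8b1 chr9:121912437-121914822 (3.78 to 8.06). WT livers and Cpt2 KO liver 2 lacked, and the other 5 livers had, Cyp27a1 chr1:74712112-74713073 (4.0 to 8.50), Cyp7b1 chr3:18165639-18166233 (4.24 to 10.5), Abcb4 chr5:8927858-8929511 (5.20 to 9.48) and Slc10a1-window chr12:80951084-80951593 (4.16 to 5.08). DKO livers lacked, and every other liver had, Cyp8b1 chr9:121911549-121912302 (5.25 to 8.73). DKO livers and Cpt2 KO liver 1 lacked, and the other 5 had, Cyp27a1 chr1:74724845-74725233 (4.82 to 9.07) and chr1:74725313-74726395 (2.69 to 9.03) and Cyp7a1 chr4:6270584-6272941 (4.0 to 8.95). DKO livers and Ppara KO liver 1 lacked Cyp7a1 chr4:6277947-6278436 (4.17 to 7.60).

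Cpt2 KO livers lacked Slc27a5-window chr7:12983143-12985041 (3.08 to 5.40 in all 6 others). Cpt2 KO and 1 other liver lacked Cyp7b1 chr3:18209834-18210505 (4.5 to 8.90) and chr3:18238944-18240256 (4.71 to 8.13), and Abcb4 chr5:8896254-8896993 (4.71 to 5.83) and chr5:8897375-8897796 (5.09 to 7.29). Slc10a1 chr12:80955589-80956461 was called in WT liver 2, both Ppara KO livers and DKO liver 1 (4.5 to 5.51), and Slco1b2 chr6:141632756-141633092 in both Ppara KO livers and DKO liver 2 (4.57 to 5.29). Slco1b2 chr6:141642069-141642571 was called in WT liver 1, Cpt2 KO liver 1 and both Ppara KO livers (4.83 to 9.29). Abcb11 chr2:69340101-69340446 was called in both WT livers and Ppara KO liver 2 (5.94 to 7.32).

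Both Cpt2 KO livers and 1 or more others gained a peak relative to WT at 5 further places. They were Slc10a1 chr12:80968262-80968649 (4.15 to 6.01) and Abcb4 chr5:8937638-8938127 (3.67 to 4.83), each with DKO liver 2, and Slc27a5 chr7:12996111-12996588 (3.43 to 4.83), chr7:12998408-12998922 (3.00 to 6.88) and chr7:12999234-12999680 (3.62 to 4.91). These Slc27a5 peaks lie inside or just beyond the gene, next to its lead interval.

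H3K9ac, read as positions only in 1 WT and 1 Cpt2 KO liver, was present at more places in the WT liver. Of the 69 intervals 26 were in both lists (37.7%, beside 55.2% of all 46568), 39 in the WT list alone (56.5%, beside 20.8%) and 4 in the Cpt2 KO list alone (5.8%, beside 23.9%). The counts by gene are of each liver's own intervals, and several of these can lie in 1 of the 69. They are therefore not shares of the 69. Cyp7a1 had 3 intervals in the WT list and 0 in the Cpt2 KO list, and Abcb11 1 and 0. Slco1b2 had 8 (8.60 kb) and 3 (3.36 kb), Slc10a1 12 (15.66 kb) and 7 (10.31 kb), and Cyp8b1 10 (10.11 kb) and 6 (6.04 kb). Cyp27a1 had 7 and 5, Cyp7b1 2 and 1, and Abcb4 9 and 8. Baat had 5 (6.70 kb) and 6 (5.28 kb), and Slc27a5 11 and 11 over 9.49 and 4.48 kb. With 1 liver a genotype there is no replicate check of these counts.

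Other genes of bile acid metabolism were read in the same way, 30 genes for further synthesis enzymes, transporters and regulators, of which 26 had a tested H3K27ac interval (77 of 256 intervals). In the comparison for loss of Cpt2, 3 of the 77 were called higher and 10 lower (16.9%, beside 12.3% of all intervals tested). The lowest adjusted p was at an interval of Nr1h4, which encodes FXR (-0.95 ± 0.17, limma, adjusted p 0.00764). It was 1 of 7 tested at that gene, and no other was called. Lower intervals were also at the transporter Slco1a1 (-1.30 ± 0.28), at Scp2 (-0.87 ± 0.20, the better of 2), Akr1d1 (-0.83 ± 0.17) and Acox2 (-0.61 ± 0.19), all of which serve the later steps of synthesis, and at the regulators Klb (-0.72 ± 0.20), Mafg (-0.67 ± 0.18) and Nr5a2 (-0.50 ± 0.15). Higher intervals were at the transporters Slco2b1 (0.67 ± 0.17) and Abcc4 (0.57 ± 0.16) and in the Nr1i3 window (0.43 ± 0.11, nearest to Tomm40l).

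In the comparison for loss of Ppara, 4 of the 77 were called higher and 3 lower (9.09%, beside 7.34% of all), with 23 under an unadjusted p of 0.05. Slco1a4, a bile acid uptake transporter, had 2 higher intervals, the better at 1.34 ± 0.20 (limma, adjusted p 0.00231). The tested interval of Hsd17b4, the peroxisomal bifunctional enzyme of side-chain shortening, was lower by 1.52 ± 0.14 (limma, adjusted p 0.00021). At Nr1h4, 1 of 7 tested intervals was called, and it was lower (-0.75 ± 0.17). At Nr0b2, 1 of 3 was called, higher (0.62 ± 0.15), and at Scp2 1 of 14, higher (0.54 ± 0.12). DKO against WT called 6 higher and 10 lower (20.8%, beside 20.2%). At Nr1h4 it called 2 lower, the better at -1.70 ± 0.25 (limma, adjusted p 0.00148). Cpt2 KO against WT called 1 higher and 11 lower (15.6%, beside 13.5%), and Ppara KO against WT 3 higher and 4 lower (9.09%, beside 6.42%). The interaction called 0, with 11 under an unadjusted p of 0.05. In H3K4me1 none of 119 intervals was called in the comparisons for Ppara, Cpt2 and DKO, with 12, 15 and 19 under an unadjusted p of 0.05. The H3K27ac shares of these genes, higher and lower together, were near those over all intervals, so these totals are no result about the list. Lower calls alone were 10 of 77 for Cpt2 loss (beside 7.38% of all) and 11 of 77 for Cpt2 KO against WT (beside 7.69%). For DKO against WT they were 10 of 77 (beside 11.5%). The list was not tested as a set.

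The intervals most like 2 of the leads across the 8 libraries were found by Pearson's r of centred log2 folds among the 18281. For Cyp7a1 they were nearest to Cp (0.960), H2-T24 (0.955) and Nt5c2 (0.943). For Cyp8b1 they were nearest to Smlr1 (0.989), Ddhd1 (0.982, at a distance of 359155 bases) and Iqch (0.973). The 8 points share genotypes and libraries, and these values are descriptions with no test.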

How the data were processed

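Peak lists were deposited for each library, called by the authors separately for every liver, with BWA and MACS2 2.1.0 on mm10 per the submitters' processing notes. The fold over input of a peak is the authors' deposited ratio, and its −log10 q is theirs too; depth in reads is not given by the files. H3K27ac Ppara KO liver 2 names a different build in its peak names; every peak fell in an interval of the mark, and it was read as mm10. Consensus intervals and H3K9ac intervals were deposited as positions only. Per-sample columns of no sample numbered 0. The pooled inputs were not analysed here on their own.

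Peaks overlapping an interval by 1 base gave its highest fold (pandas 2.3.3). Log2 folds at intervals called in all 8 libraries of a mark were centred and fitted as 4 genotype means in limma 3.58.1 (R 4.3.3), tested on simulated data. The members and lists were chosen with earlier results of these data known. Named intervals are each gene's lead, those with an adjusted p under 0.05, and those called in both livers of 1 genotype and neither of another. Replicate numbers do not pair the livers. Gene positions are RefSeq, GRCm38.p6. Alternatives are given at the end; that of presence counts was chosen after seeing the data. Some results are not reported here.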

Additional observations from a re-analysis of the deposited data

How the results depend on the processing

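Of the 12 called differences, 0 changed direction in any setting, and 4 were kept with no centring, 6 with quantile normalization, 0 with the smallest peak width as covariate, 7 with missing values set to the lowest fold (which moves the spread estimate and the number tested), 12 with a minimum −log10 q of 10 and 12 with an overlap of at least 50%. The replicate block, for a number that does not pair the livers (correlation of replicate differences between genotypes -0.06 to 0.17 in H3K27ac), kept 12 of 12 and called 4, 4 and 5 for Cpt2 loss, Cpt2 KO and DKO. Counts for Cpt2 loss (3) were 1 with no centring, 0 with width and 20 filled in. For Cpt2 KO against WT (4) they were 1 with no centring, 1 with quantile normalization, 0 with width and 16 filled in, and for DKO (5) 2, 3, 0 and 13, and 2 within 2 kb. Filled in, Ppara loss (0) gave 6, Ppara KO 4 and the interaction 5. Leaving out each library gave 1 to 4 for Cpt2 loss (1 without Cpt2 KO liver 2 or Ppara KO liver 1), 0 to 2 for Cpt2 KO (0 without Cpt2 KO liver 1), 1 to 5 for DKO (1 without DKO liver 2), and 0 to 1 for Ppara loss, Ppara KO, and Ppara loss and DKO in H3K4me1. The 24 H3K27ac intervals present and absent became 15 within 2 kb. Differences for Cpt2 loss turned at the Cyp7a1 lead (0.0677) and Baat lead (0.0351) with no centring. That at the Slc27a5 lead turned with width (0.731), in a fit that cannot separate width from Cpt2. The cause of the other changes was not tested.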
